A study of Glycine max with 9 samples.

Results

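A set of 104 soybean genes had low expression in the lines R08-1450 and R95-1705 and high expression in the lines R05-591 and M23. The set was drawn from 33779 expressed genes, and its members were chosen by the deposited values themselves. A gene was taken when its FPKM (fragments per kilobase of transcript, scaled to the number of mapped fragments), averaged over the 9 lines, lay from 20 to 1000, its genomic span exceeded 200 bp, its Z-score was at most -1 in both R08-1450 and R95-1705, and its Z-score was at least 0.5 in both R05-591 and M23. The filter on level and span alone left 3320 genes, which serve below as the background and are called the filtered genes. The full rule took 3.13% of them, a share that the rule itself fixes. The Z-score expresses the log2-transformed FPKM of a gene in one line as a deviation from the gene's mean over the 9 lines, divided by the gene's standard deviation over the lines, and it has no unit.

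The libraries came from whole seeds collected at stage S6, in the middle of maturation, from Glycine max lines raised in growth chambers, with 1 library per line. The GEO labels describe R08-1450, R05-591, R05-4256 and R02-6268F as high in oil, R95-1705 as high in protein and M23 as mid oleic. They describe FAM94 as high in stearic acid, N0304-303-3 as low in palmitic acid, mid oleic and low in linolenic acid, and Jack as similar to commodity oil. The 2 low lines thus carried different labels, high oil and high protein, and the 2 high lines were a high oil line and a mid oleic line.

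Without replicates of a line, the Z-scores carry no error and lines could not be tested against each other. The deposited table holds neither read counts nor FPKM per line, so the number of reads behind each gene's value is unknown here. The study does report the aligned reads and the mean coverage of each library, which differed between the lines. A Z-score gives the order and relative distance of the lines within a gene but not the fold difference, and a Z-score of -1.5 can stand for a small or a large change. The tissue was checked against 9 named genes for glycinin, β-conglycinin and 2S albumin, the storage proteins of the seed. Their mean FPKM ranked from 1 to 56 among all genes, with 1288 FPKM for the lowest. Gene names came only from the study's lists of abundant or variable genes, so high ranks were nearly fixed in advance. By wider annotation words for storage proteins 24 genes were named, and 8 of them were filtered genes with at most 1000 FPKM. The ranks therefore describe these genes and are no test of the tissue.

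At mid-maturation the soybean embryo fills with storage proteins and oil, and the seed coat surrounding it is still a living tissue. Storage proteins accumulate in vacuoles, together with protease inhibitors, and oil is kept in oil bodies coated by oleosins. Genes for late embryogenesis abundant (LEA) proteins, which protect cells during drying, are typically induced towards the end of this period. Whole seeds mix these tissues, so less RNA per cell and fewer cells of a type cannot be told apart.

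Only 2 of the 104 members could be given a gene model and an annotation. The deposited table identifies genes by a locus number and a span, without gene names. The names came from the study's tables through the mean FPKM and the chromosome or the span. These tables list abundant genes and genes with large variation, and most matched entries had a Z-score past 2 in size. Only 3 members passed that cutoff, against 23.8% of the filtered genes, so few members could be named from such entries. These 3 members also stayed without a name. The study's table of genes with varying expression was held only in part, so names are missing for this reason too. The other 102 members are given by their locus number and position, as the table lists them on the Williams 82 genome. The loci come from assembled and merged transcripts, and the annotation Gmax_189 guided the alignment. Of the 3320 filtered genes, 352 could be named in this way.

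The first named member, Glyma07g39020 (XLOC_018766), is annotated as a member of the peroxidase superfamily. Plant peroxidases of this kind are heme enzymes that use hydrogen peroxide to oxidize phenolic compounds, for example in cell walls. The gene spans 43621170 to 43623713 on chromosome 7, and its mean of 768 FPKM was the highest of all members. R08-1450 had a Z-score of -1.73 and R95-1705 one of -1.36, against 0.84 in both M23 and R05-591. Among the lines outside the rule, it was 1.21 in Jack, 0.47 in R05-4256, 0.041 in FAM94, -0.081 in R02-6268F and -0.23 in N0304-303-3. Jack therefore had the highest value of all 9 lines for this gene, above both lines by which it was chosen.

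The second, Glyma07g28940 (XLOC_017051), encodes a BURP domain protein, a plant-specific family with members in seeds and cell walls. It spans 33238789 to 33241844 on chromosome 7, and its mean of 20.8 FPKM was near the lower limit of the rule. R08-1450 had a Z-score of -1.55 and R95-1705 one of -1.12, while R05-591 reached 1.05 and M23 0.64. Jack was again the highest line at 1.24, followed among the remaining lines by R02-6268F at 0.73, N0304-303-3 at 0.23, FAM94 at -0.58 and R05-4256 at -0.64. The peroxidase and the BURP gene thus shared Jack as their highest line and differed most in R05-4256.

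Other genes annotated as peroxidase or BURP, looked up after these members were named, numbered 6. Glyma17g01720, a cationic peroxidase on chromosome 17 from 1040897 to 1043277 with a mean of 987 FPKM, missed the rule only in R95-1705. It had Z-scores of -2.30 in R08-1450, -0.49 in R95-1705, 0.58 in M23, 0.69 in R05-591 and 1.13 in Jack. The BURP gene Glyma12g34570 (ADR6, Sali3-2) had a mean of 6177 FPKM, above the limit, with -1.03 in R08-1450 and -1.19 in R95-1705. Its Z-score was 1.88 in Jack but 0.20 in M23 and -0.11 in R05-591, so it was low in the same 2 lines without being high in the other 2. The glutathione peroxidase gene Glyma05g37900, of a different enzyme family that detoxifies peroxides, had -2.39 in R08-1450 and -0.21 in R95-1705. The remaining 3 also missed the rule in at least one line. Glyma03g30800, a glutathione peroxidase gene, had 0.55 in R08-1450 and -2.10 in R95-1705. Glyma09g02590, a peroxidase gene, had -0.65 in R08-1450, -0.51 in R95-1705 and -0.24 in R05-591. The BURP gene Glyma04g35360, with a mean of 0.917 FPKM, had -2.14 in R95-1705 but -0.0097 in R05-591.

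**Figure D1:**
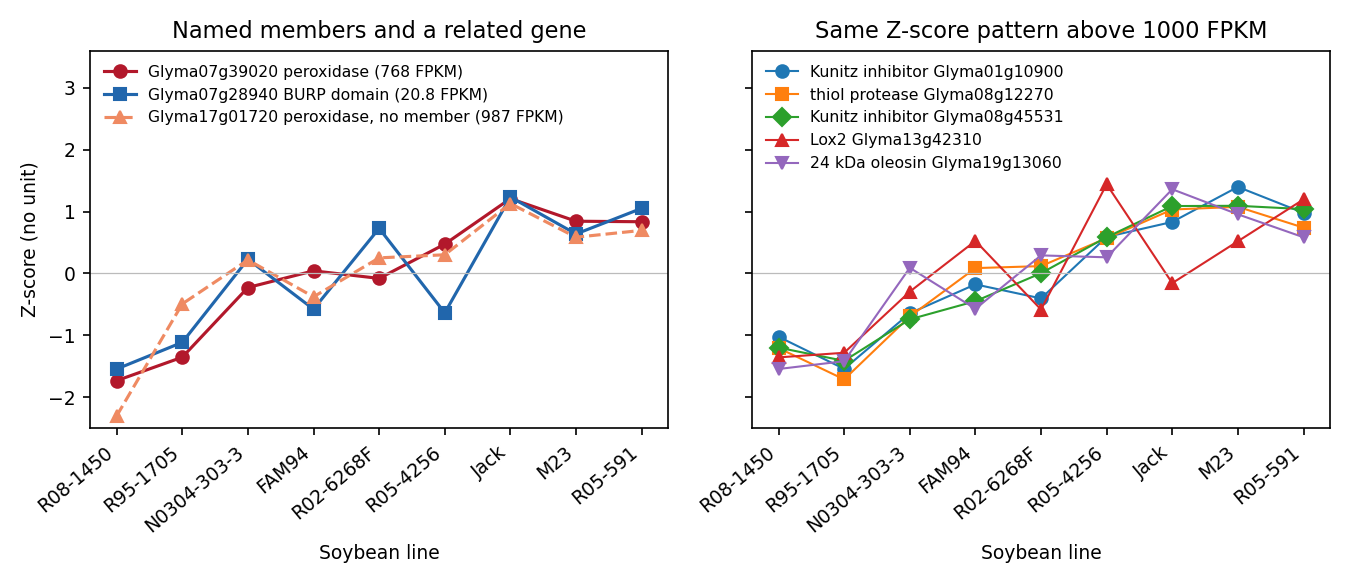
Z-scores (no unit) in the 9 lines, 1 library each, with lines joining the points of a gene only to guide the eye. The left panel shows both named members, Glyma07g39020 and Glyma07g28940, and the peroxidase gene Glyma17g01720, which stayed outside the rule with a Z-score of -0.49 in R95-1705. The right panel shows the 5 genes above 1000 FPKM with the same Z-score pattern, all between -1.55 and -1.03 in R08-1450.

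The member with the second highest mean, XLOC_020593, spans 44882983 to 44884058 on chromosome 8 at 586 FPKM. It carries no name, but exactly the same span is also given to XLOC_022306, which is Glyma08g45531, a Kunitz trypsin inhibitor gene with a mean of 10455 FPKM. Kunitz inhibitors block trypsin and accumulate with the storage proteins of the soybean seed. The mean of the member was 5.61% of that of the inhibitor gene, and their Z-scores differed by at most 0.362 in any line. XLOC_020593 had Z-scores of -1.29 in R08-1450, -1.18 in R95-1705, 1.17 in R05-591, 0.99 in M23, 1.06 in Jack, 0.75 in R05-4256, -0.33 in R02-6268F, -0.38 in N0304-303-3 and -0.81 in FAM94. The sequencing kit does not mark strand, so reads from 2 genes on one span cannot be told apart, and the member's value is uncertain for this reason. It was the only member whose span overlapped that of another gene.

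The next most abundant members had no name. XLOC_012428 (chromosome 5, 33699042 to 33707099) had a mean of 398 FPKM and a Z-score of -1.91 in R95-1705 and -1.21 in R08-1450, with 1.19 in M23 as its highest line. XLOC_011522, on the same chromosome from 38495324 to 38497529 with 394 FPKM, was likewise lower in R95-1705, at -1.83, than in R08-1450, at -1.02. XLOC_034192, on chromosome 13 from 32206550 to 32207991 with 381 FPKM, was highest in Jack at 1.57 and had FAM94, at -1.15, as low as the lines of the rule, at -1.15 in R08-1450 and -1.30 in R95-1705. FAM94 was in fact slightly below R08-1450 in this gene.

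XLOC_047219 on chromosome 18, from 18772041 to 18774907, had 206 FPKM and -1.67 in R95-1705, with R05-4256 at 1.02 close to R05-591 at 1.005. XLOC_044488 on chromosome 17, from 8985939 to 8988187, had 202 FPKM and nearly equal low values of -1.38 and -1.26 in R08-1450 and R95-1705. The remaining members among the 10 most abundant were XLOC_011294 on chromosome 5 from 34705664 to 34708046, XLOC_035986 on chromosome 13 from 31580213 to 31583044 and XLOC_039310 on chromosome 15 from 3979948 to 3983256. They had 132, 130 and 127 FPKM and were all lower in R08-1450, at -1.74, -1.58 and -1.98, than in R95-1705, at -1.15, -1.30 and -1.16.

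Over all members the median Z-score was -1.47 in R08-1450, with a range from -2.06 to -1.002, and -1.32 in R95-1705, with a range from -2.08 to -1.01. In R05-591 the median was 0.90 with a range from 0.51 to 1.62, and in M23 it was 0.85 with a range from 0.52 to 1.49. These values chose the members and are given as a description. R08-1450 was the lower of the 2 low lines for 66 members and R95-1705 for 38, and for 36 members the difference between them was at most 0.2. Of the filtered genes, 30.4% had a Z-score of at most -1 in R08-1450 and 18.5% in R95-1705. A Z-score of at least 0.5 was found for 37.4% in M23 and for 16.2% in R05-591, so the condition on R05-591 was the narrower of the 2.

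**Figure D2:**
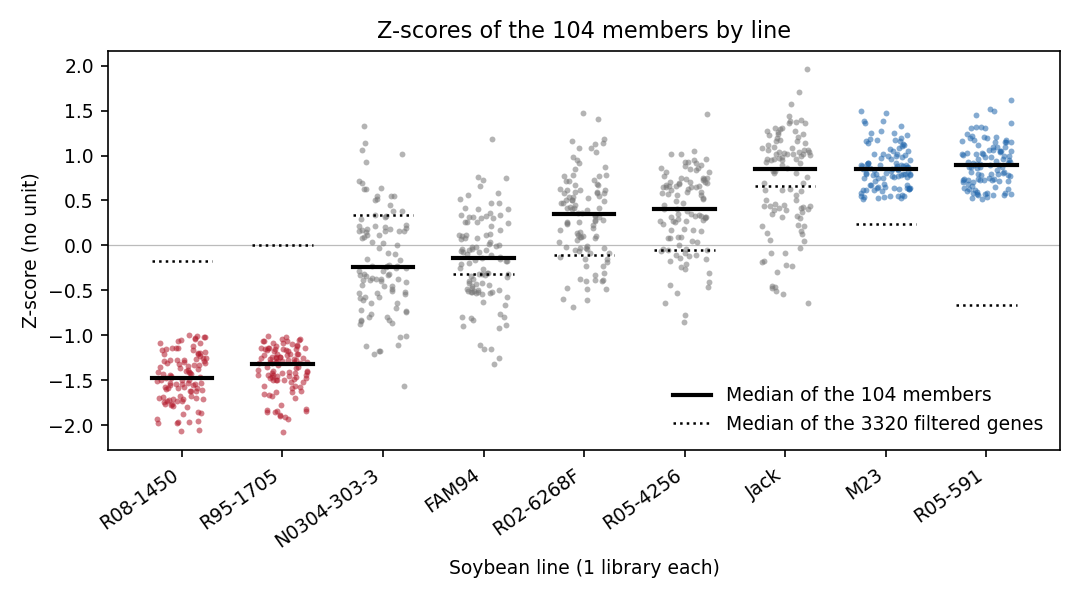
Z-scores (no unit) of the 104 members in each of the 9 lines, 1 point per gene, with the median of the members as a solid bar and the median of the 3320 filtered genes as a dotted bar. Red and blue mark the lines that chose the members. The members' median was 0.85 in Jack and -0.24 in N0304-303-3, against 0.66 and 0.34 for the filtered genes.

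The study's cutoff for expression variation, a Z-score of 2 in size, was passed by 3 of the 104 members, whereas 23.8% of the filtered genes passed it in some line. The rule asks for deviations in 4 lines at once, and with 9 values a single Z-score cannot exceed 2.67 in size. XLOC_030104 on chromosome 11, from 9325682 to 9327781, had -2.06 in R08-1450 and -1.07 in R95-1705. XLOC_043924 on chromosome 17, from 167628 to 170386, had -2.05 in R08-1450 and -1.36 in R95-1705, and its other 7 lines lay close together from 0.16 in Jack to 0.86 in R05-591. XLOC_027373 on chromosome 10, from 34634530 to 34636111, was the one past the cutoff in R95-1705, at -2.08 against -1.05 in R08-1450. XLOC_052177 on chromosome 20, from 689819 to 695446, was the next lowest in R95-1705 with -1.93.

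The highest Z-scores in M23 were 1.49 for XLOC_020831 on chromosome 8 from 1704744 to 1706546, 1.47 for XLOC_040493 on chromosome 15 from 981015 to 988191, and 1.38 for XLOC_035986. XLOC_020831 and XLOC_040493 had N0304-303-3 near the low lines, at -1.01 and -0.83. The highest in R05-591 were 1.62 for XLOC_017478 on chromosome 7 from 43711839 to 43715319, 1.52 for XLOC_037716 on chromosome 14 from 44372943 to 44377652, and 1.49 for XLOC_035743 on chromosome 13 from 26409921 to 26412334. For XLOC_017478 and XLOC_037716 the other 6 lines outside the low pair lay far below R05-591, at no more than 0.67 and 0.62.

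R08-1450 and R95-1705 were the 2 lowest of the 9 lines for 97 members. They were so for 13.8% of the filtered genes, a difference that follows from the rule. For the other 7 members a single further line fell below the higher of the 2, and this line was N0304-303-3 for 4 genes and FAM94 for 3. The farthest was XLOC_022723, with -1.56 in N0304-303-3 against -1.01 in R08-1450 and -1.204 in R95-1705. The gap between the higher of the low lines and the lowest of the other 7 lines had a median of 0.664 and reached 1.52, and it was at least 0.5 for 68 members. These counts and gaps rest on the values that chose the members and are a description only.

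R05-591 and M23, for which the rule asked a smaller deviation than for the low pair, were the 2 highest lines for 22 members. They were both among the 3 highest for 75 members, and Jack was the other of these 3 for 39. Over all 9 lines, the highest line was Jack for 36 members, R05-591 for 31, M23 for 22, R02-6268F for 7, N0304-303-3 for 4, R05-4256 for 3 and FAM94 for 1. Jack, which the rule did not use, was thus more often at the top than either line of the high pair. Jack was also the highest line for 32.3% of the filtered genes, close to its 34.6% of the members.

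The 5 lines outside the rule were not free, because the 9 Z-scores of a gene add up to 0. The 4 Z-scores of the rule had a median sum of -1.11, so the other 5 had a median sum of 1.11, with a range from -0.050 to 1.99. A sum above 0 over these lines therefore followed from the values of the rule for most members. The rule did not set the order of the 5 lines, but the lines also differed over the filtered genes, as given below. The median Z-score was 0.85 in Jack, 0.41 in R05-4256, 0.35 in R02-6268F, -0.14 in FAM94 and -0.24 in N0304-303-3. A value above 0 was found in Jack for 86.5% of the members and 71.7% of the filtered genes, in R05-4256 for 76.9% and 46.5%, and in R02-6268F for 72.1% and 44.5%. In FAM94 the shares were near each other, at 36.5% and 33.2%, whereas in N0304-303-3 they were 39.4% and 67.5%.

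Among the filtered genes the medians in these lines also differed from 0. They were 0.66 in Jack, -0.051 in R05-4256, -0.10 in R02-6268F, -0.32 in FAM94 and 0.34 in N0304-303-3. The members thus lay above the filtered genes by 0.46 in R05-4256, 0.45 in R02-6268F, 0.19 in Jack and 0.17 in FAM94, and their median in N0304-303-3 differed from that of the filtered genes by -0.59. N0304-303-3 was the one line of the 5 in which the members were below the background. A Z-score of at least 0.5 in Jack was found for 65 members, and 55.1% of the filtered genes reached it. In N0304-303-3 it was found for 15 members against 41.5% of the filtered genes, in R05-4256 for 48 against 21.9%, in R02-6268F for 39 against 23.1% and in FAM94 for 8 against 13.8%.

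Jack was the highest of the 5 lines for 55 members (52.9%, against 44.8% of the filtered genes), R02-6268F for 21, R05-4256 for 17, N0304-303-3 for 7 and FAM94 for 4. With the medians of the filtered genes subtracted from each line, Jack's share was 18.6%. The lowest was N0304-303-3 for 44 members (42.3%), FAM94 for 32 (30.8%, against 34.8% of the filtered genes), R05-4256 for 14, Jack for 8 and R02-6268F for 6. Among the filtered genes N0304-303-3 was the lowest of the 5 lines for 10.4% and the highest for 29.5%. Of the 120 possible orders of the 5 lines, 51 occurred among the members. The most frequent one ran from Jack through R05-4256, R02-6268F and FAM94 down to N0304-303-3 and was found for 13 members, and 2 further orders were found for 9 members each, one with R05-4256 and R02-6268F exchanged and one with FAM94 and N0304-303-3 exchanged. In all, 54 members (51.9%) had Jack, R02-6268F and R05-4256 above both FAM94 and N0304-303-3, a split chosen after the values were seen, against 14.3% of the filtered genes.

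Single members ranged widely in the lines outside the rule. In Jack the Z-score ranged from -0.64 to 1.96, in N0304-303-3 from -1.56 to 1.33, in FAM94 from -1.32 to 1.19, in R05-4256 from -0.85 to 1.46 and in R02-6268F from -0.69 to 1.47. XLOC_026547 on chromosome 10, from 47725191 to 47727190, was one of the genes against the usual order, with 1.14 in N0304-303-3, -0.029 in Jack and -0.46 in R05-4256. It had a mean of 73.7 FPKM. The members lower in R08-1450 and those lower in R95-1705 had like medians in the 5 lines. These were 0.86 and 0.83 in Jack, 0.40 and 0.51 in R05-4256, 0.30 and 0.41 in R02-6268F, -0.17 and -0.13 in FAM94, and -0.22 and -0.32 in N0304-303-3.

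To see what the condition on R05-591 and M23 added, the members were set beside the 269 filtered genes (8.10%) that were low in both R08-1450 and R95-1705 whatever the other lines. The 104 members are part of these. Over the 269 genes the median was 0.77 in M23 and 0.63 in R05-591, values that the members among them help to set. A Z-score of at least 0.5 was found for 199 of the 269 genes in M23 and for 153 in R05-591, with all 104 members counted in both. Low values in 2 lines also raise the other lines of a gene, because its Z-scores add up to 0. The medians in Jack (0.94), R02-6268F (0.38), R05-4256 (0.32) and FAM94 (-0.068) were near those of the members. In N0304-303-3 the median was 0.23 over the 269 genes and -0.24 over the members. The genes high in both R05-591 and M23 made up 8.64% of the filtered genes, and 104 of these 287 genes were members.

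The mirrored pattern, with Z-scores of at least 1 in R08-1450 and R95-1705 and at most -0.5 in R05-591 and M23, was met by 195 filtered genes (5.87%), 1.88 times the number of members. In this set N0304-303-3 had a median of 0.31 and was the highest of the 5 other lines for 123 genes, and R02-6268F had a median of -0.49. Relative to the filtered genes, the mirrored set was shifted by -0.88 in Jack, -0.38 in R02-6268F, -0.17 in R05-4256, -0.029 in N0304-303-3 and 0.15 in FAM94. The members were shifted by 0.19, 0.45, 0.46, -0.59 and 0.17 in these lines. Jack, R02-6268F and R05-4256 thus had shifts of opposite sign in the 2 sets, and N0304-303-3 was shifted mainly in the members. The members' median in N0304-303-3 lay close enough to 0 to depend on the rule, since it was 0.0096 with a limit of 0.3 in place of 0.5 in both high lines.

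**Figure D3:**
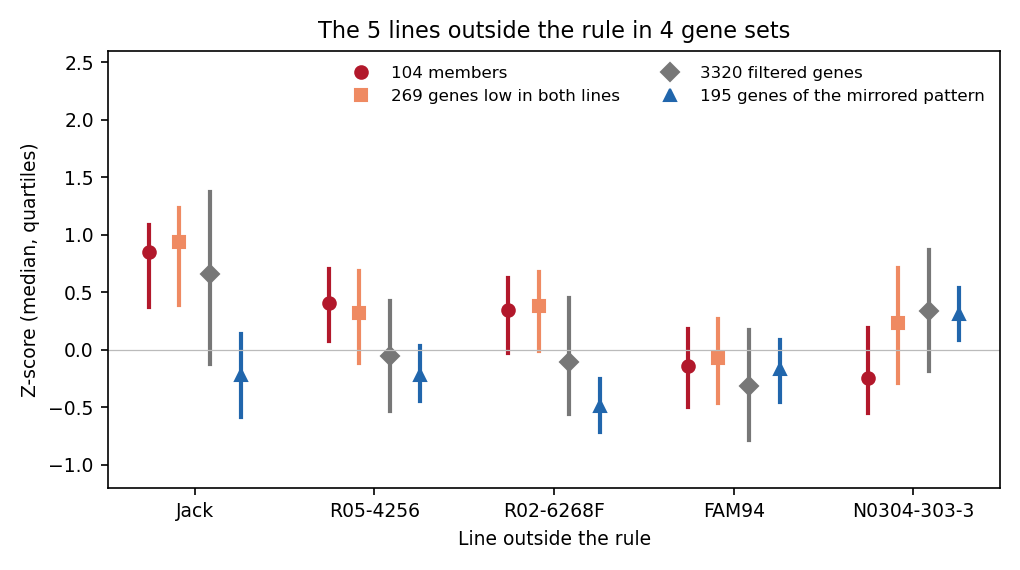
Median Z-score (symbols, no unit) with the quartiles over genes (bars) in the 5 lines outside the rule, for the 104 members, the 269 genes low in both R08-1450 and R95-1705, the 3320 filtered genes and the 195 genes of the mirrored pattern. In N0304-303-3 the members had a median of -0.24 and the other sets 0.23, 0.34 and 0.31. The Z-scores of a gene add up to 0, so the rule of each set limits the values shown.

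The mean FPKM of the members ran from 20.1 to 768, with a median of 33.0 and quartiles of 24.8 and 54.0. For the filtered genes the median was 36.7 and the quartiles were 25.9 and 69.6. In the class of 20 to 30 FPKM the share of members among the filtered genes was 3.73% (46 members). It was 2.99% between 30 and 50 FPKM, 2.75% between 50 and 100 FPKM and 2.47% (13 members) above that level. Together the members had 6941 FPKM, or 0.944% of the sum over all genes, of which the peroxidase gene alone had 768. The median in R05-4256 was 0.34 for members in the lowest class and 0.70 for those in the highest, and that in N0304-303-3 was 0.012 and -0.33.

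The genomic span of the members had a median of 2953 bp, with quartiles of 2093 and 4231 bp, and ranged from 568 to 21432 bp. The filtered genes had a median of 3192 bp with quartiles of 2066 and 4756 bp. The genes of the mirrored pattern were longer, with a median of 4076 bp. No test was made of these differences.

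Above the limit of 1000 FPKM, 62 genes had a span over 200 bp, and 5 of them (8.06%) met the Z-score conditions. All 5 could be named. They were the Kunitz trypsin inhibitor genes Glyma08g45531 and Glyma01g10900, the gene Glyma08g12270 for the 34 kDa vacuolar thiol protease of maturing seeds, the lipoxygenase gene Lox2 (Glyma13g42310) and the gene Glyma19g13060 for a 24 kDa oleosin. Lipoxygenases add oxygen to polyunsaturated fatty acids, and oleosins cover the surface of oil bodies. Glyma08g12270 had a mean of 14645 FPKM with -1.21 in R08-1450, -1.71 in R95-1705, 1.08 in M23 and 0.74 in R05-591. Its other lines followed the most frequent order of the members, with Jack at 1.03, R05-4256 at 0.57, R02-6268F at 0.12, FAM94 at 0.085 and N0304-303-3 at -0.70.

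Glyma19g13060, with 6719 FPKM, had -1.55 in R08-1450, -1.42 in R95-1705 and 1.36 in Jack. Glyma01g10900, with 1913 FPKM, had -1.03, -1.54 and 0.83 in these lines. Lox2, with 2378 FPKM, differed from the others in Jack, at -0.16, and was highest in R05-4256 at 1.44. These genes shared the Z-score conditions of the rule and were left out by its upper limit alone.

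Among the named filtered genes the annotation words of 13 lists (LEA and seed maturation, storage, oil body, protease inhibitor, lipid transfer, gibberellin-regulated, raffinose family, photosynthesis, ribosome, translation, heat shock, transcription factor and acyl lipid) found 0 members. Only 2 members had names, the peroxidase and the BURP gene, which fall in none of these lists. The 102 unnamed members could not be assigned. Most names came from genes past the study's cutoff, a Z-score of 2 in size, which only 3 members passed. The 0 was therefore nearly fixed in advance and does not describe the members. Of the 16 filtered genes named as LEA or seed maturation, 8 met the mirrored pattern, which 5.87% of the filtered genes met. Among these 16, 0 were low in both R08-1450 and R95-1705, against 8.10% of the filtered genes but only 9 of the 352 named filtered genes. Of the 35 filtered ribosomal genes 0 met either pattern, against 3.13% of the filtered genes for the rule and 5.87% for the mirrored pattern. Lists this small can hold 0 genes at such shares. The lists were drawn from the 352 named filtered genes, which are the closer background, and only 2 of these met the rule. The counts of 0 therefore do not show that a list is depleted. The share of the mirrored pattern among the named genes is not given here. Low in both lines were 1 gene shared by the storage and lipid transfer lists (Glyma15g13750, of the 2S albumin superfamily) and 1 oil body gene. The latter, the oleosin gene Glyma10g33760, missed the rule only in R05-591, at 0.26. The named genes were listed by the study for high abundance or for large variation in these same libraries, so these counts are no independent evidence.

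The members lay on 19 of the 20 chromosomes. Chromosome 10 held 10 members, chromosomes 2 and 5 held 9 each and chromosome 7 held 8, among them both named genes. Relative to the filtered genes the share was highest on chromosome 14, at 5.69%, followed by 5.44% on chromosome 7 and 5.29% on chromosome 10. Chromosome 16 held 1 member among 110 filtered genes, and chromosome 19 held 0 of 179, which allows a share of up to 1.68% when a count of 0 is given an upper limit of 3. The outer 25% at either end of the chromosomes held 79.8% of the members and 79.7% of the filtered genes, so the members were placed like the background in this respect. For the genes of the mirrored pattern the share was 72.3%.

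**Figure D4:**
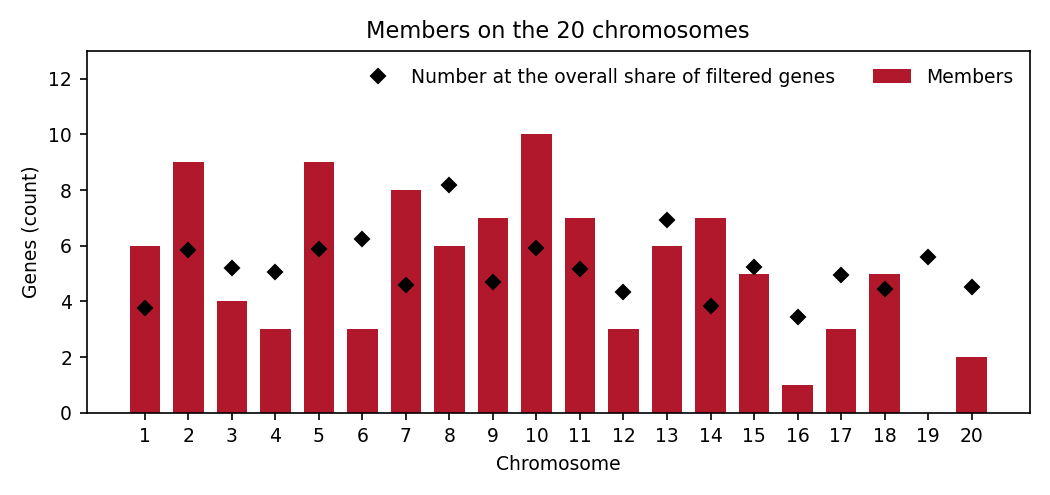
Number of members on each of the 20 chromosomes (bars) and the number that each chromosome would hold at the overall share of 3.13% of its filtered genes (diamonds). Chromosome 10 held 10 members against 5.92 at this share, and chromosome 19 held 0 against 5.61.

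No member was the next expressed gene of another. For 0 of 104 this allows a share of up to 2.88% when 3 genes are taken as the upper limit of a count of 0. The members are only 104 of 33779 expressed genes and have 208 flanking genes. A count of 0 therefore does not tell whether members lie together more or less often than other genes. Within 100 kb of each other lay 2 pairs. XLOC_023043 (24571896 to 24572909) and XLOC_023045 (24581870 to 24582437) on chromosome 9 were 8960 bp apart with 2 expressed genes between them, and had 34.1 and 21.8 FPKM. Their Z-scores were -1.95 and -1.51 in R08-1450, -1.04 and -1.78 in R95-1705, and 1.156 and 1.1995 in M23. The peroxidase gene Glyma07g39020 and XLOC_017478 on chromosome 7 were 88125 bp apart with 9 expressed genes between them, and differed in Jack, with 1.21 and 0.044.

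The 208 expressed genes flanking the members had medians of 0.10 in R08-1450, -0.089 in R95-1705, -0.027 in M23 and -0.23 in R05-591. Values below 0 in both low lines and above 0 in both high lines were found for 42 flanking genes (20.2%) and for 19.1% of all genes. These signs, which are looser than the limits of the rule, were thus about as frequent next to the members as elsewhere. A Z-score of at most -1 in both low lines was found for 11 flanking genes (5.29%) and for 5.89% of all genes.

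The Z-score limits and the lower FPKM limit did not fall in gaps of the values, whereas the upper FPKM limit did. The members nearest to the limit in R08-1450 had -1.002, -1.006 and -1.022, and the genes that missed it there alone had -0.994, -0.985 and -0.950. In R95-1705 these values were -1.010, -1.015 and -1.039 inside and -0.995, -0.990 and -0.985 outside. In R05-591 they were 0.51, 0.53 and 0.54 inside and 0.49, 0.48 and 0.48 outside, and in M23 0.52, 0.53 and 0.53 inside and 0.48, 0.48 and 0.47 outside. In mean FPKM the nearest were 20.1, 20.2 and 20.3 inside and 19.996, 19.9 and 19.7 outside. At the upper limit the nearest were 768 FPKM inside and 1913 FPKM outside.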

How the data were processed

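Whole seeds at stage S6 of 9 soybean lines gave 1 library per line. Per the methods, the authors mapped trimmed read pairs with TopHat 1.4.0 (Bowtie 0.12.8) on the genome of Williams 82, guided by the Gmax_189 annotation. They discarded reads that mapped to several places. Cufflinks assembled the transcripts of each sample, Cuffmerge merged them, and Cuffdiff 2.1.1 quantified the FPKM. The loci and spans are thus those of merged assemblies. Genes with too low an FPKM were removed by the authors unless every line expressed them. The deposited FPKM is the authors' mean over the 9 lines. The deposited per-line scores are Z-scores, for which the authors standardized the log2-transformed FPKM of each gene over the lines. Since every gene is scaled to the same spread, noise and large differences give Z-scores of like size. Strand was not kept by the kit.

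Members and lists were chosen with earlier results of these data known. Gene models came from the study's tables by mean FPKM (relative tolerance 2e-05) with the chromosome or the span, and 3 entries were not matched to 1 gene. One of these tables was held only in part. The reference gene table was of another assembly and was not used. Chromosome length was taken as the end of the last gene. Named genes were the named members, the 10 most abundant, the 3 most extreme in each line of the rule, and neighbouring pairs. XLOC_026547, XLOC_022723, the related peroxidase and BURP genes and the genes above 1000 FPKM were chosen after their values were seen. No test was made. Shares have exact binomial and medians order-statistic intervals (95%), which cover the sampling of genes only, except that for a count of 0 an upper limit of 3 counts was used in the text. The alternatives were other limits for Z-scores and FPKM, centring, shared spans left out, other chromosome ends, and, added after seeing the data, centring on the filtered genes and Z-scores over 8 lines. On simulated data, 199 of 200 planted genes were found and 4 of 3120 others were called. The planted shifts were large against the simulated noise, which was independent between lines, and no line had an offset of its own. These counts check the code and do not measure how accurate the rule is on the real genes. Python 3.11.15, NumPy 2.4.6, pandas 2.3.3, SciPy 1.17.1 and Matplotlib 3.10.9 were used.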

Additional observations from a re-analysis of the deposited data

How the results depend on the processing

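The number of members was 62 with at most -1.2 in both low lines, 57 with at least 0.7 in both high lines, 235 with means from 10 to 1000 FPKM, 31 from 50 to 1000 FPKM and 865 without a limit on FPKM. The limits on FPKM change which genes are counted. The median mean FPKM was 18.5, 79.3 and 4.36 under the same 3 changes of the limit on FPKM. The median span was 2605 bp from 50 FPKM and 3577 bp without the limit. The outer 10% at either end held 54.8% of the members. Without the limit on FPKM the median was 0.48 in Jack and 0.30 in R05-4256, Jack was the highest of the 5 lines for 38.8% and 7.05% had a member as next expressed gene. From 50 FPKM the median in R05-4256 was 0.65 and N0304-303-3 was the lowest line for 54.8%. The median in N0304-303-3 turned to 0.0096 with at least 0.3 in both high lines, and the cause was not tested. With a distance of 100 kb in place of the next gene 3.85% of members had a neighbour, and with a cutoff of 1.8 in place of 2 the share past it was 23.1%.

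With the medians of the filtered genes subtracted from each line, an alternative chosen after seeing the data, the rule took 97 genes, of which 60 were among the 104. Jack then had a median of 0.26 and was the highest of the 5 lines for 18.6%, and the median in FAM94 turned to 0.16. This follows from the subtraction, since the filtered genes had a median of 0.66 in Jack and -0.32 in FAM94.

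With the Z-scores standardized again over 8 lines, leaving out each line outside the rule in turn, also chosen after seeing the data, the rule took from 86 genes without R05-4256 to 104 without N0304-303-3, and from 82 to 87 of them were among the 104. The median in N0304-303-3 lay from -0.26 without FAM94 to -0.062 without Jack, the median in FAM94 lay from -0.13 to -0.010 and the share past 2 was 0 in each case, where the possible range of a Z-score over fewer lines is narrower. No paired analysis was possible because each line has 1 library and the result comes from no test.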
